A study of Mus musculus with 5 samples.

Results

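The genes described here are 31 members of the TGF-beta and BMP signalling pathway, out of 18193 genes measured on Affymetrix mouse expression arrays in stem and progenitor cells sorted from mouse bone marrow. They were chosen by name, as ligands, receptors, Smads, inhibitors and target genes of the pathway, and all 31 had at least 1 probe set whose annotation gave that symbol alone. Where a gene had several, the probe set with the highest mean over the arrays stands for it.

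Arrays came from 2 samples of MSI2-inducible mice, transgenic mice named for an inducible form of the RNA-binding protein Musashi 2, and 3 samples of control rtTA mice, which carry the doxycycline-dependent transactivator used for such transgenes. All were on the C57BL/6 strain. The labels used here do not give the transgene's promoter, the age of the mice, or any induction of the transgene and its length, and they name no individual mice. Where p-values are given, the spread they rest on is that of these arrays, and it may be technical. The sample labels describe Sca1-positive, Kit-positive cells (LSK). The design text of the series instead gives LK cells, in which Sca1 is absent.

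Kit had log2 intensities of 8.80 and 9.50 in the MSI2-inducible arrays, against 9.19, 9.35 and 9.66 in control arrays. Of 9 measured LSK markers, 3 had a higher mean in MSI2-inducible arrays and 6 a lower one, and 0 passed the adjusted test. Slamf1 (5.57 and 7.22, control 7.36 to 7.99) and Mecom (9.13 and 9.52, control 9.84 to 9.98) were lower without overlap, and the rest overlapped. Of 11 LK progenitor markers, 7 were higher and 4 lower, with 6 highest in MSI2-inducible replicate 1 and 5 in control replicate 1. The gene for Sca1, Ly6a, was not analysed here. The T cell marker Cd3e lay between 2.22 and 2.63 in all arrays, where the median over all probe sets was 5.57. Of 9 measured T and NK cell markers, 7 had means under 5.57, 4 were highest in MSI2-inducible replicate 1 and 3 in control replicate 1. Their summed linear intensity was 851 and 697 in MSI2-inducible arrays, against 648 to 1165 in control arrays. Of 9 measured B cell markers, 6 were highest in MSI2-inducible replicate 1 and 6 had means under 5.57, and their summed linear intensity was 4693 and 1373 in MSI2-inducible arrays, against 1236 to 2256 in control arrays. The mature neutrophil gene S100a8 was bright in every array, at 13.59 and 11.18 in the MSI2-inducible and 12.64, 11.71 and 12.60 in the control arrays. MSI2-inducible replicate 1 stood apart from the other arrays on the first principal component of all genes (score -56.5, against 2.87 to 37.3 for the other arrays). In that array 10 of 10 measured mature neutrophil markers were higher than in any other array. The summed linear intensity of these markers was 63583 there and 11802 in replicate 2, against 14303 to 26847 in control arrays. Where a member's difference moved by over 1.5 times without replicate 1, both values are given.

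TGF-beta and BMP ligands bind pairs of type II and type I receptor kinases on the cell surface. The type I receptor phosphorylates receptor-regulated Smads, mainly Smad2 and Smad3 after TGF-beta or activin and Smad1 and Smad5 after BMP, which join Smad4 and act on target genes in the nucleus. Inhibitory Smads, ubiquitin ligases and corepressors damp the signal, and several of them are themselves induced by it. In bone marrow, TGF-beta is known for holding blood stem cells out of the cell cycle.

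None of the 31 genes passed the test between MSI2-inducible and control cells. With limma's moderated test, 0 members were higher and 0 lower at an adjusted p of 0.05, where 0.0165% of all genes were higher and 0.00550% lower (0.0220% in either direction). At an unadjusted p under 0.05, 0 members were higher (2.87% of all genes) and 1 was lower (2.77%), against 5.64% of all genes in either direction. Differences are MSI2-inducible minus control on the log2 scale. They ran from -0.67 for Bmpr1a to 0.84 for Smad7, with 14 members above 0 (50.4% of all genes) and 17 below, a median of -0.11 over the members and 0.00 over all genes. With the mean of each gene's probe sets in place of the brightest, the members' median turned to 0.08, and without MSI2-inducible replicate 1 to 0.04. All adjusted p in limma's fit lay between 0.855 and 0.999.

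**Figure D1:**
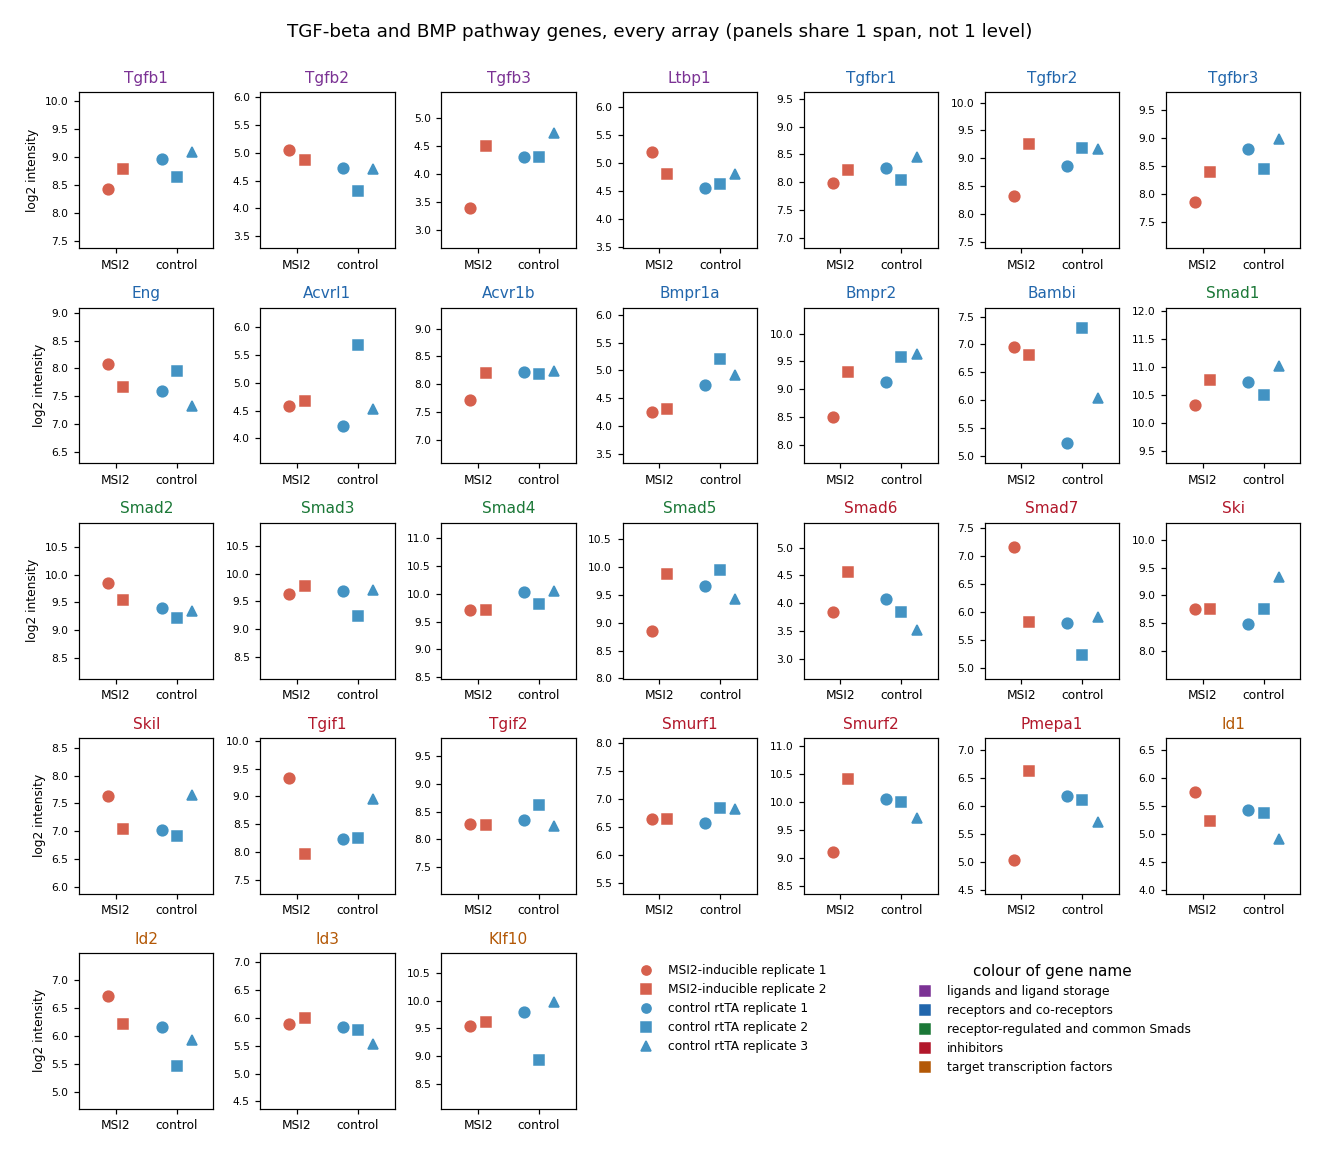
Log2 intensity of each of the 31 genes (vertical axis, each panel with its own level but the same span) in the MSI2-inducible arrays (left, red) and the control rtTA arrays (right, blue), with a symbol per replicate and the gene name coloured by role. MSI2-inducible and control arrays overlap in all but 7 panels, those of Tgfb2, Tgfbr3, Bmpr1a, Smad2, Smad4, Id2 and Id3.

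MSI2-inducible and control arrays did not overlap for 4 members that were higher (9.27% of all genes) and 3 that were lower (9.39%). Together these 7 made 22.6% of the members, against 18.7% of all genes, so the share was near that of the whole array. The precision was limited by the number of arrays. For 17 members the 95% interval of the difference stayed within 1 log2 unit of 0, so that a change of that size lay outside it. For the other 14 it reached past 1 log2 unit on at least one side. Over all genes 71.9% of intervals stayed within that bound, against 54.8% of the members.

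**Figure D2:**
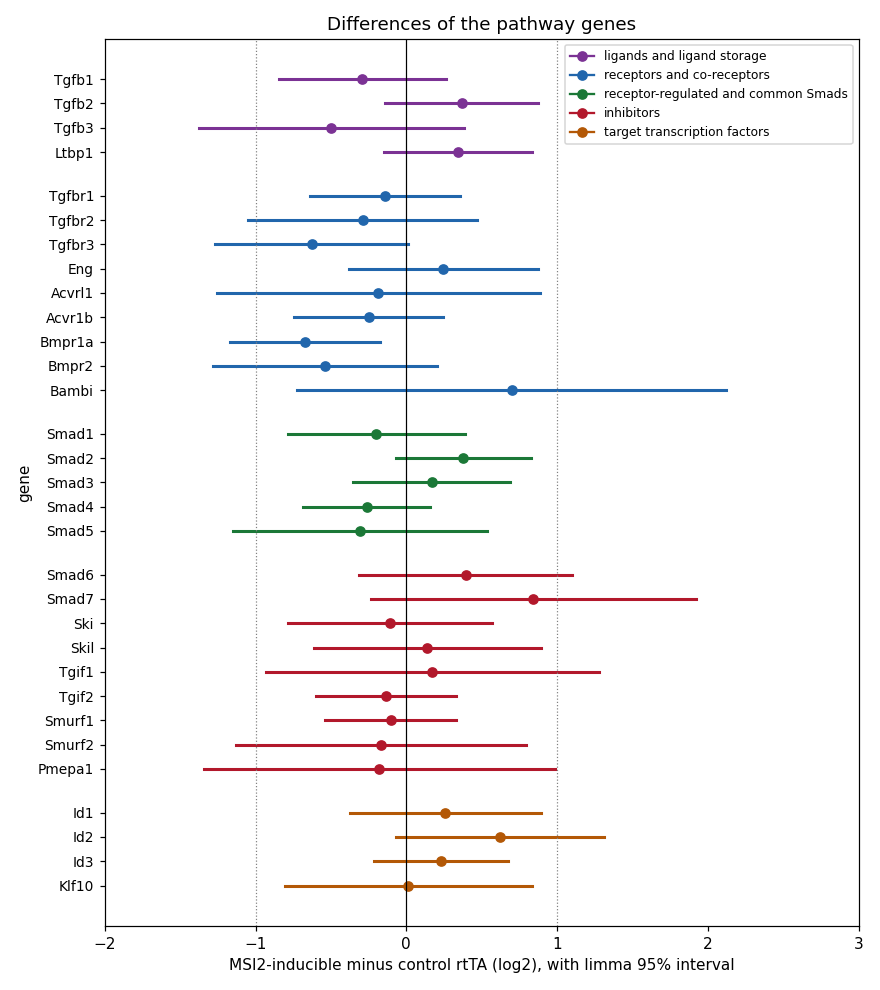
Difference of each gene, MSI2-inducible minus control rtTA on the log2 scale (horizontal axis), with limma's 95% interval as a bar and the genes in order of role from top to bottom; dotted lines mark 1 log2 unit either way. The bar of Bmpr1a is the 1 that does not cross 0, before adjustment for the number of genes, and that of Bambi is the widest, from -0.72 to 2.12.

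Of the 4 ligands and storage proteins, 2 were above 0 and 2 below, and none passed the test. Tgfb1, the main TGF-beta of blood cells, lay at 8.42 and 8.79 in MSI2-inducible arrays, against 8.96, 8.63 and 9.10 in control arrays. The groups overlapped, and the difference was -0.29 (SE 0.22, limma adjusted p 0.925), or -0.11 without replicate 1. Its second probe set read 7.22 and 8.07 in MSI2-inducible arrays and 5.68, 8.46 and 5.95 in control arrays, a difference of 0.95, so the probe sets of Tgfb1 did not point the same way. Tgfb2 lay at 5.05 and 4.86 in MSI2-inducible arrays, against 4.73, 4.32 and 4.72 in control arrays. Both MSI2-inducible arrays were above every control array, with a difference of 0.37 (SE 0.21, limma adjusted p 0.912). All of its probe sets were dim, with means under 5.57, and its 3 other probe sets differed by -0.28 to -0.03.

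Tgfb3 lay at 3.40 and 4.50 in MSI2-inducible arrays and at 4.31, 4.31 and 4.73 in control arrays. Replicate 1 alone was low, and the difference of -0.50 became 0.05 without it. Ltbp1, which holds latent TGF-beta in the matrix, read 5.19 and 4.80 in MSI2-inducible arrays and 4.54, 4.62 and 4.80 in control arrays, a difference of 0.34 that was 0.15 without replicate 1. Replicate 2 had the same value as the highest control array. The other Ltbp1 probe sets differed by -0.09 and -0.05, in the opposite direction. Tgfb3 and Ltbp1 were dim as well. Means under 5.57, the median over probe sets, were found for 7 members and for 42.0% of all genes.

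Of the 9 receptors and co-receptors 2 were above 0 (50.4% of all genes) and 7 below, with a median difference of -0.25, and none passed the test. MSI2-inducible replicate 1 was below the control range in 6 of them and replicate 2 in 2. Without replicate 1 the differences ran from -0.65 for Bmpr1a to 0.63 for Bambi, with Tgfbr1 at -0.02 and Acvr1b at -0.01. Bmpr1a, a type I BMP receptor, had the smallest p of the members. Its brightest probe set lay at 4.26 and 4.30 in MSI2-inducible arrays, against 4.73, 5.20 and 4.92 in control arrays. Both MSI2-inducible arrays were below every control array, with a difference of -0.67 (SE 0.20, unadjusted p 0.0163, limma adjusted p 0.855). The signal was low in all arrays, and the 5 other Bmpr1a probe sets differed by -0.07 to 0.85, 4 of them above 0. One of these read 5.86 and 3.55 in the MSI2-inducible arrays, against 3.33, 3.36 and 4.87 in control arrays. The mean of all Bmpr1a probe sets differed by 0.11.

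Tgfbr3, the co-receptor betaglycan that presents TGF-beta to the signalling receptors, lay at 7.85 and 8.39 in MSI2-inducible arrays and at 8.81, 8.44 and 8.99 in control arrays. The groups did not overlap, although replicate 2 was close to control replicate 2. The difference was -0.63 (SE 0.26, unadjusted p 0.0538, limma adjusted p 0.891), and -0.35 without replicate 1. The second Tgfbr3 probe set was also lower on average, by -0.42, with 7.0 and 8.29 in MSI2-inducible arrays and 7.87 to 8.31 in control arrays.

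The TGF-beta receptors proper overlapped between groups. Tgfbr2, the type II receptor that binds TGF-beta, lay at 8.31 and 9.25 in MSI2-inducible arrays, against 8.86, 9.18 and 9.17 in control arrays. Replicate 1 was below every control array and replicate 2 above every one, so the difference of -0.29 (SE 0.31) turned to 0.18 without replicate 1. Another Tgfbr2 probe set, with a mean under 5.57, read 5.07 and 6.30 in MSI2-inducible arrays and 4.92 to 5.33 in control arrays. That one differed by 0.50, and the third by -0.01. Tgfbr1, the type I partner of Tgfbr2, lay at 7.98 and 8.22 in MSI2-inducible arrays and at 8.26, 8.03 and 8.45 in control arrays. Its difference was -0.14 (SE 0.20), or -0.02 without replicate 1, and its 2 other probe sets differed by -0.28 and -0.38, in the same direction. The 95% interval of Tgfbr1 ran from -0.64 to 0.35, and that of Tgfbr2 from -1.05 to 0.47.

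Bmpr2, the type II BMP receptor, lay at 8.51 and 9.30 in MSI2-inducible arrays, against 9.12, 9.58 and 9.63 in control arrays. Replicate 1 was below all control arrays and replicate 2 within their range, and the difference of -0.54 (SE 0.30, limma adjusted p 0.912) was -0.14 without replicate 1. Acvr1b, an activin type I receptor, read 7.72 and 8.20 in MSI2-inducible arrays and 8.18 to 8.23 in control arrays. The control arrays of Acvr1b lay close together, and only replicate 1 was away from them. The difference was -0.25, and -0.01 without replicate 1.

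Receptors known from endothelium varied among the control arrays. Acvrl1, a type I receptor of endothelial cells, lay at 4.58 and 4.68 in MSI2-inducible arrays, against 4.23, 5.68 and 4.53 in control arrays. Bambi, a pseudoreceptor without a kinase that blocks the signal, lay at 6.95 and 6.82 in MSI2-inducible arrays, against 5.22, 7.30 and 6.03 in control arrays. In the probe sets used for both genes, control replicate 2 was the highest array. The second Acvrl1 probe set, dimmer still, did not share this. It read 3.49 and 3.25 in MSI2-inducible arrays against 3.23, 3.17 and 2.56 in control arrays, a difference of 0.38. Without control replicate 2, the difference of Acvrl1 in the probe set used turned from -0.19 to 0.25. That of Bambi grew from 0.70 (SE 0.58) to 1.26. Leaving out the highest control array raises a difference by construction, so these rises are no evidence of a change. Neither gene passed in that fit (limma adjusted p 0.920 for Acvrl1 and 0.866 for Bambi). The endothelial cadherin Cdh5 stood at 6.88 in control replicate 2 as well, with 4.17 and 3.74 in MSI2-inducible arrays and 4.15 and 3.89 in the remaining control arrays. The stromal chemokine Cxcl12 did likewise, at 8.79 there, with 4.61 and 5.79 in MSI2-inducible arrays and 6.33 and 6.95 in the remaining control arrays. Cdh5 and Cxcl12 were named for being highest there, and the list as a whole did not share this. Of 12 endothelial and stromal markers, 3 were highest in control replicate 2, 3 in control replicate 3 and 5 in MSI2-inducible replicate 1. Their median in control replicate 2 was 0.11 above the control mean, and 6 had means under 5.57. Their summed linear intensity was 965 and 1283 in MSI2-inducible arrays and 1432 to 1737 in control arrays. Their part in these values was not tested. In sorted populations such as these, fewer cells of a type and less RNA per cell cannot be told apart. Eng, the co-receptor endoglin, which stem cells and endothelium both carry, read 8.07 and 7.67 in MSI2-inducible arrays and 7.60, 7.96 and 7.32 in control arrays, a difference of 0.24 that was 0.04 without MSI2-inducible replicate 1.

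Of the 5 Smads that carry the signal, 2 were above 0 and 3 below, and none passed the test. Smad2, which acts after TGF-beta and activin, lay at 9.85 and 9.55 in MSI2-inducible arrays, against 9.40, 9.22 and 9.34 in control arrays. Both MSI2-inducible arrays were above every control array, with a difference of 0.38 (SE 0.18, limma adjusted p 0.911), or 0.23 without replicate 1. The second Smad2 probe set was apart in the opposite direction, at 7.04 and 7.55 in MSI2-inducible arrays and 7.79, 8.01 and 7.68 in control arrays, a difference of -0.54. No direction can be given for Smad2, and the mean of its probe sets differed by -0.08.

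Smad3, the partner of Smad2, lay at 9.64 and 9.78 in MSI2-inducible arrays, against 9.68, 9.24 and 9.70 in control arrays. The difference was 0.17 (SE 0.21, limma adjusted p 0.955). Another Smad3 probe set read 8.85 in MSI2-inducible replicate 1 and 7.26 in replicate 2, against 6.59, 7.20 and 7.43 in control arrays, and the third differed by -0.38. Smad4, the common partner, lay at 9.71 in both MSI2-inducible arrays, against 10.04, 9.82 and 10.05 in control arrays. The groups did not overlap, and the difference of -0.26 (SE 0.17, limma adjusted p 0.920) was nearly the same without either MSI2-inducible array. The other Smad4 probe sets differed by -0.23 and -0.06, so all 3 were below 0. The 95% interval, from -0.68 to 0.16, included no difference.

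Smad1 and Smad5 act after BMP. Smad1 lay at 10.33 and 10.77 in MSI2-inducible arrays and at 10.74, 10.49 and 11.01 in control arrays, a difference of -0.20 that was 0.02 without replicate 1. Its dimmest probe set pointed the other way, with 6.18 and 5.91 in MSI2-inducible arrays against 5.47, 4.94 and 5.86 in control arrays. Smad5 lay at 8.86 and 9.88 in MSI2-inducible arrays and at 9.66, 9.94 and 9.42 in control arrays. Again replicate 1 alone was low, and the difference of -0.30 became 0.21 without it. Another Smad5 probe set read 7.59 and 8.74 in MSI2-inducible arrays against 8.20, 7.84 and 7.97 in control arrays. That one differed by 0.16, and the third by -0.35.

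Among the 9 inhibitors differences ran from -0.18 to 0.84, with 4 above 0 and 5 below. Smad7, the inhibitory Smad that TGF-beta itself induces, lay at 7.17 and 5.81 in MSI2-inducible arrays, against 5.81, 5.23 and 5.91 in control arrays. Replicate 1 was far above every control array and replicate 2 within their range. The difference of 0.84 (SE 0.44, limma adjusted p 0.912) was 0.16 without replicate 1. The suffix of this probe set, _x_at, marks probes that may match other transcripts. The second Smad7 probe set was likewise high in replicate 1 alone, with 6.80 and 5.60 in MSI2-inducible arrays and 5.38, 5.62 and 5.93 in control arrays. Smad6, the inhibitory Smad of the BMP branch, lay low in all arrays, with 3.84 and 4.57 in MSI2-inducible arrays against 4.07, 3.84 and 3.53 in control arrays. Here replicate 2 was the array above the control range, and the difference of 0.39 was 0.76 without replicate 1.

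The corepressors Ski and Skil, which bind Smads on DNA, overlapped between groups. Ski lay at 8.75 in both MSI2-inducible arrays and at 8.49, 8.76 and 9.33 in control arrays. Skil lay at 7.63 and 7.04 in MSI2-inducible arrays and at 7.02, 6.91 and 7.65 in control arrays. Their differences were -0.11 and 0.14, both smaller than the spread of the control arrays (SD 0.43 and 0.40, n = 3), and that of Skil was -0.16 without MSI2-inducible replicate 1. Tgif1, a homeodomain corepressor of Smads, lay at 9.34 in MSI2-inducible replicate 1 and at 7.97 in replicate 2, against 8.24, 8.25 and 8.95 in control arrays. Its relative Tgif2 lay at 8.28 and 8.26 in MSI2-inducible arrays, against 8.35, 8.62 and 8.23 in control arrays. The replicates of Tgif1 lay on opposite sides of the control range, while those of Tgif2 lay inside it for this brighter probe set. The second Tgif2 probe set read 8.44 and 8.02 in MSI2-inducible arrays against 8.02, 7.78 and 7.72 in control arrays. It differed by 0.39, where the brighter set gave -0.13. The difference of Tgif1 was 0.17, and -0.51 without replicate 1.

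Smurf1 and Smurf2 are ubiquitin ligases that mark receptors and Smads for breakdown. Smurf1 lay at 6.64 in both MSI2-inducible arrays, against 6.56, 6.84 and 6.82 in control arrays. Its second probe set was higher in both MSI2-inducible arrays, at 6.39 and 6.72 against 6.33, 5.34 and 5.92 in control arrays, a difference of 0.69 where the brighter set gave -0.10. Smurf2 lay at 9.10 and 10.41 in MSI2-inducible arrays, against 9.71 to 10.06 in control arrays. Pmepa1, a TGF-beta-induced membrane protein that keeps Smads from the receptor, lay at 5.02 and 6.63 in MSI2-inducible arrays and at 6.18, 6.11 and 5.72 in control arrays. For these brightest probe sets of both Smurf2 and Pmepa1, replicate 1 was below and replicate 2 above every control array. Their differences of -0.17 and -0.18 turned to 0.48 and 0.62 without replicate 1. The other probe sets did not share this split. Another of Smurf2 was below every control array in both replicates, at 7.51 and 7.88 against 7.96 to 8.36. A dimmer one of Pmepa1 read 5.25 in replicate 1 and 4.48 in replicate 2, against 4.87 to 5.55 in control arrays.

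All 4 target transcription factors were above 0 (50.4% of all genes), by 0.01 to 0.62, and none passed the test. Id1, Id2 and Id3 are inhibitors of DNA-binding helix-loop-helix factors and classical direct targets of BMP Smads. Promoter sequences of Id2 and Id3 are shown because MSI2-inducible and control arrays did not overlap for these targets, a choice made after their values were seen. They are the 250 bases before the start of each gene in RefSeq's table for GRCm38.p6, in the direction of the gene, chr12:25096093-25096342 on the minus strand for Id2 and chr4:136143572-136143821 on the plus strand for Id3. Capitals mark GGCGCC, a GC-rich motif that BMP Smads bind, and CAGAC or its complement GTCTG, the core of the Smad-binding element.
Id2: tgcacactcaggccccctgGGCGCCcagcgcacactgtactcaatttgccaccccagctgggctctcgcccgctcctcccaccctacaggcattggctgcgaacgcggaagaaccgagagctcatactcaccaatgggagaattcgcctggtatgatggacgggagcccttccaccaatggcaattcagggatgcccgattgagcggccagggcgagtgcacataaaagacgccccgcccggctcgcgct
Id3: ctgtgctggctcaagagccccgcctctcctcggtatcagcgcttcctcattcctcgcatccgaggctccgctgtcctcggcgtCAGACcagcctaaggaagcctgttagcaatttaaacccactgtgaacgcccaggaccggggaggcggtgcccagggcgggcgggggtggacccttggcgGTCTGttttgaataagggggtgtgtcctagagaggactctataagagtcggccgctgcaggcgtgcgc
GGCGCC, which reads the same on both strands, occurred once in the Id2 window, 231 bases before the start, and not in the Id3 window, and 9.59% of 32841 promoter windows of this length held it. CAGAC occurred on either strand at 2 places in the Id3 window, 167 and 68 bases before the start, and not in the Id2 window, and 42.2% of windows held it. The motifs do not overlap one another, and a match describes the letters only.

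Id2 lay at 6.73 and 6.22 in MSI2-inducible arrays, against 6.16, 5.46 and 5.93 in control arrays. Both MSI2-inducible arrays were above every control array, replicate 2 by little, and the difference was 0.62 (SE 0.28, unadjusted p 0.0701, limma adjusted p 0.911), or 0.37 without replicate 1. A second Id2 probe set overlapped and differed by 0.0035, with 5.65 and 5.13 in MSI2-inducible arrays against 6.83, 4.17 and 5.16 in control arrays. The third, dim in all arrays, overlapped as well and differed by 0.59. Id3 lay at 5.90 and 6.00 in MSI2-inducible arrays, against 5.84, 5.78 and 5.54 in control arrays. The groups did not overlap, by a small margin, and the difference was 0.23 (SE 0.18, limma adjusted p 0.927). Id1 lay at 5.75 and 5.24 in MSI2-inducible arrays, against 5.43, 5.38 and 4.90 in control arrays. Replicate 2 of Id1 was inside the control range, and the difference of 0.26 (SE 0.26, limma adjusted p 0.944) was 0.00 without replicate 1. Klf10, a zinc finger factor that TGF-beta induces early, lay at 9.55 and 9.61 in MSI2-inducible arrays and at 9.79, 8.94 and 9.98 in control arrays. Its difference of 0.01 was the smallest of the members, and was 0.04 without replicate 1.

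Of 18 stress and handling genes, 17 had a higher mean in MSI2-inducible than in control arrays, and 0 passed the adjusted test. Relative to the mean of the control arrays, their median was 1.05 and 0.76 in MSI2-inducible arrays and -0.17, 0.23 and -0.14 in control arrays. All 18 of them were highest in one of the MSI2-inducible arrays, 15 in replicate 1 and 3 in replicate 2, with summed linear intensities of 52551 and 46194 in MSI2-inducible arrays, against 25864 to 36293 in control arrays. Their part in the values of Smad7, the Id genes and Klf10 was not tested.

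The distance between the MSI2-inducible replicates was often larger than the difference between the groups. It exceeded the whole range of the control arrays in 12 of 31 members (38.7%), against 39.2% of all genes. Replicate 1 lay outside the control range in 22 members, 9 above and 13 below (71.0%, all genes 57.6%). Replicate 2 did so in 13 members, 9 above and 4 below (41.9%, all genes 47.5%). In Tgfbr2, Tgif1, Smurf2 and Pmepa1 the replicates lay on opposite sides of the control range, as in 12.5% of all genes. The replicates were more than 1 log2 unit apart in 6 members, Tgfb3, Smad5, Smad7, Tgif1, Smurf2 and Pmepa1. Without replicate 1, the direction turned in 8 members. With replicate 1 as the only MSI2-inducible array, 3 members were higher (6.78% of all genes in the same fit) and 8 lower (5.71%) at an unadjusted p under 0.05. None of them passed limma's adjusted test in that fit (lowest adjusted p 0.301), nor did any gene (0%). Erythroid markers were also highest in replicate 1 in 8 of 9 cases, with a median of 1.13 there and 0.18 in replicate 2, against -0.27 to 0.31 in control arrays, and summed linear intensities of 16269 and 13091 in MSI2-inducible arrays, against 10482 to 11232 in control arrays. The part of the neutrophil, erythroid and B cell signal in these members was not tested.

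**Figure D3:**
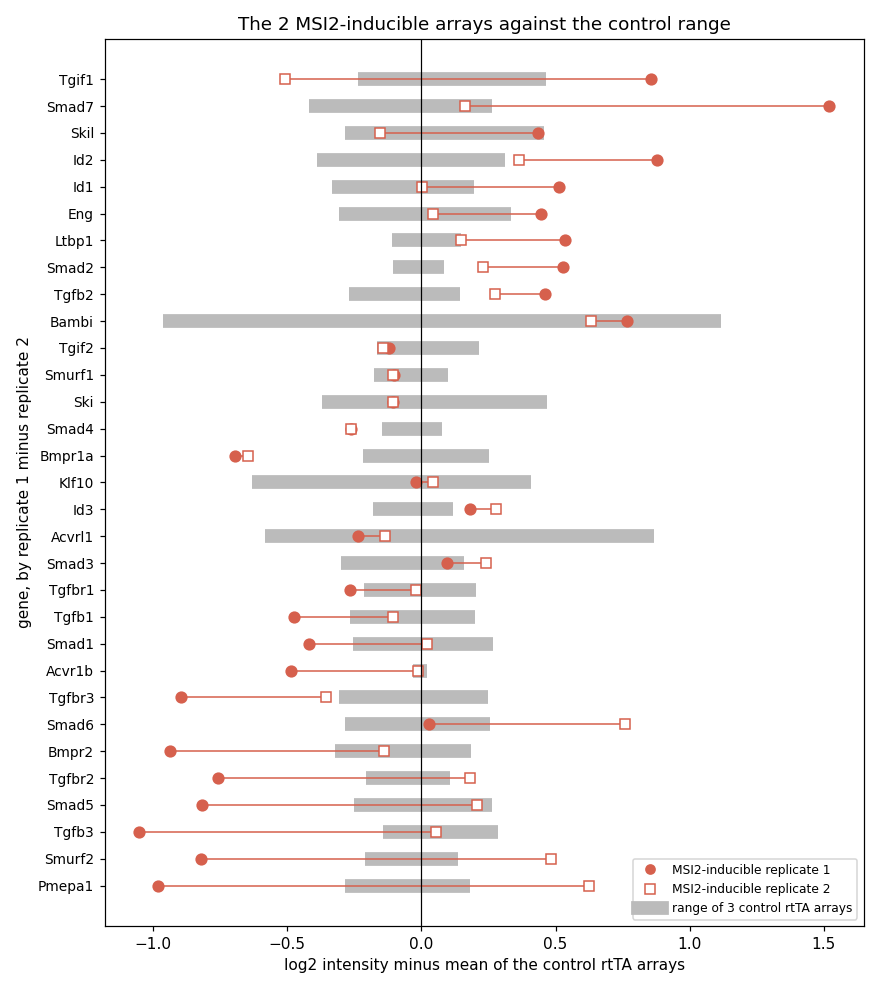
Value of each gene in MSI2-inducible replicate 1 (filled circle) and replicate 2 (open square) minus the mean of the control rtTA arrays, on the log2 scale, with the range of the 3 control arrays as a grey bar and genes ordered by replicate 1 minus replicate 2. Pmepa1 and Smurf2 at the bottom and Tgif1 at the top have a replicate on either side of the bar, while both replicates of Smad2, Tgfb2 and Id2 lie to the right of it.

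Probe sets of the same gene were a further source of spread. The members had 72 probe sets, and 24 members had more than 1. In 11 of these every probe set differed in the same direction, and in 13 they did not. Restricted to probe sets above the median of all, 8 of 16 members had a single direction and 8 did not. Tgfbr1, Tgfbr3, Eng, Acvr1b, Bmpr2, Smad4, Smad7, Skil, Smurf2, Pmepa1 and Id2 were the 11 whose probe sets all pointed one way. For Id2, however, 1 of these probe sets differed by only 0.0035, which gives no direction. For Skil, Smurf2 and Pmepa1, the brightest probe set turned direction without MSI2-inducible replicate 1, to -0.16, 0.48 and 0.62. Tested one by one, 0 of 72 probe sets passed limma's test over 34945 probe sets.

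**Figure D4:**
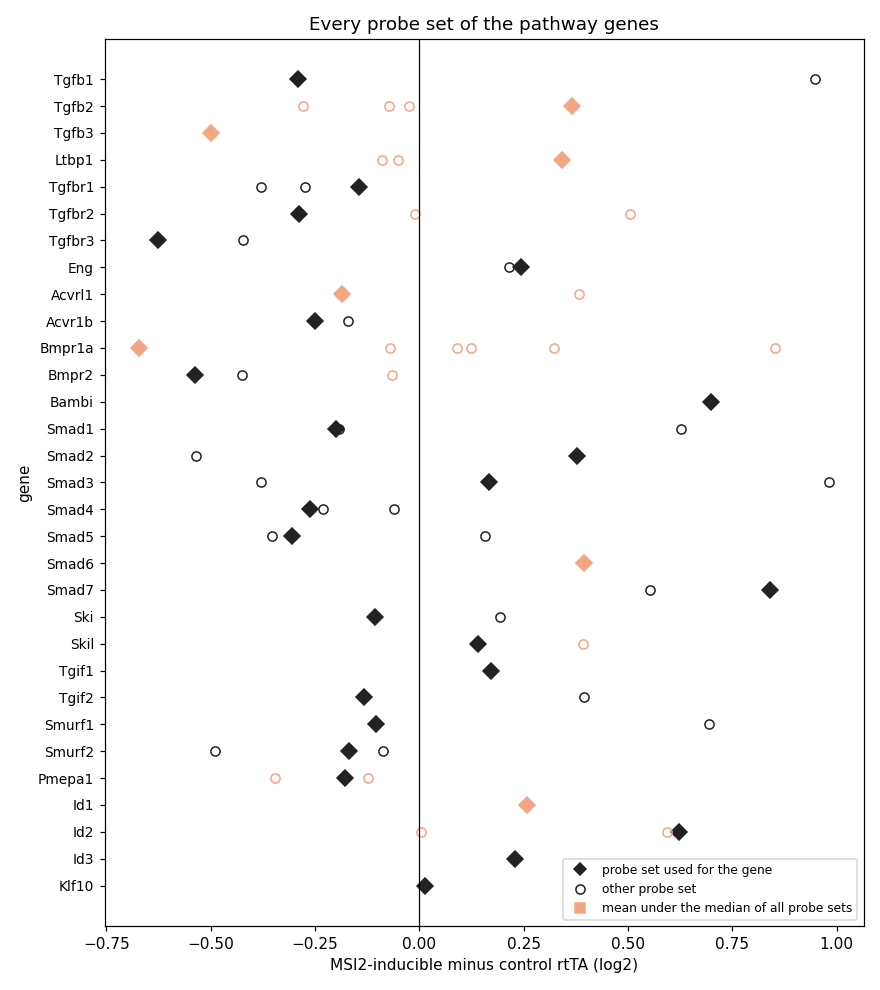
Difference of every probe set of the 31 genes, MSI2-inducible minus control rtTA on the log2 scale, with the probe set used for each gene as a filled diamond, its other probe sets as open circles, and probe sets with a mean under the median of all in orange. For Smad2 the diamond stands at 0.38 and the circle at -0.54, whereas the 3 probe sets of Smad4 all lie left of 0.

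The rest of the pathway was taken from a list of 89 other ligands, antagonists, receptors, Smad regulators and target genes, of which 85 had a value. None passed limma's adjusted test in either direction. At an unadjusted p under 0.05, 3 were higher (2.87% of all genes) and 3 lower (2.77%), with a median difference over the list of -0.02. The arrays did not overlap in 11 that were higher (9.27% of all genes) and 10 that were lower (9.39%). The 6 past the unadjusted threshold are given as values only. The higher genes were Tob1, an antiproliferative protein that binds BMP Smads, Junb, an AP-1 factor, and the cell cycle inhibitor Cdkn1a. Tob1 lay at 6.43 and 6.23 in MSI2-inducible arrays, against 5.71, 5.49 and 5.80 in control arrays, a difference of 0.67 (SE 0.19, limma adjusted p 0.792). Cdkn1a lay at 8.39 and 8.96 in MSI2-inducible arrays, against 8.07, 6.55 and 7.71 in control arrays. Its difference was 1.23 (SE 0.47, limma adjusted p 0.883). Junb, at 6.17 and 5.62 in MSI2-inducible arrays against 4.86, 5.31 and 5.27 in control arrays, is also one of the stress genes above. The mean of Junb over all arrays was under 5.57.

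The lower genes were Fn1, the matrix protein fibronectin, Wwp1, a ubiquitin ligase that acts on Smad signalling, and the BMP antagonist Grem1. Fn1 lay at 7.15 and 6.21 in MSI2-inducible arrays, against 7.60, 7.40 and 8.04 in control arrays, a difference of -1.0 (SE 0.34, limma adjusted p 0.870). Wwp1 lay at 8.34 and 8.71 in MSI2-inducible arrays, against 8.94, 9.25 and 9.06 in control arrays. Grem1 lay at 3.47 and 3.41 in MSI2-inducible arrays, against 4.65, 4.16 and 3.72 in control arrays, with a mean under 5.57. Without MSI2-inducible replicate 1 the differences were 0.57, 0.47 and 1.52 for Tob1, Junb and Cdkn1a and -1.47, -0.37 and -0.77 for Fn1, Wwp1 and Grem1, their signs being fixed by the choice of genes whose groups did not overlap.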

How the data were processed

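RNA was amplified linearly before biotin labelling, per the labels' protocols. The deposited values are linear intensities per probe set, whose medians differ little between arrays (46.4 to 48.3). The submitters' processing notes name RMA, affy and R 2.11.0, with no order; how linear values were obtained is not stated. Log2 was taken without a pseudocount. Of 45101 probe sets, 34945 had 1 symbol in the platform annotation, 932 had several and 9224 were unnamed here or among the 64 control probe sets. A GRCm38.p6 gene table, used for names only, gave current symbols by Entrez ID (34741 matched).

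The comparison used limma 3.58.1 (lmFit and eBayes, R 4.3.3, group as the only term), two-sided, with Benjamini-Hochberg adjustment over 18193 genes. The procedure was tested on simulated data. Precision is limited by having 2 and 3 arrays.

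Members, lists and tests were chosen with earlier results of these data known. All members are named, and every array's value is given for those with an unadjusted p under 0.05, groups that did not overlap, a difference of 0.5 or more or a core role. Of the other pathway genes, those with an unadjusted p under 0.05 and groups that did not overlap were named.

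Replicate numbers did not pair the samples: there are 2 pairs, and no label ties them together. The alternatives changed how a gene's value was taken, low values, normalization, pseudocount, variance model, array weights, replicate block, each array left out and the threshold.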

Additional observations from a re-analysis of the deposited data

How the results depend on the processing

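Under every alternative run, 0 members and 0 other pathway genes passed the adjusted test in either direction. Genes called over the whole array numbered 3 higher, but 1 with log2(value + 16), 1 with array weights and 0 with the replicate block, and 1 lower, but 0 with log2(value + 16), 0 with the replicate block, 3 at the looser threshold of 0.10, 2 after repeated quantile normalization and 2 without low values; leaving out an array gave 0 to 0 each way. For a lone MSI2-inducible array, the spread of control arrays stood in. Nothing in the labels pairs the replicates (correlations of same-numbered deviations 0.134 and 0.0990). At an unadjusted p under 0.05, members higher numbered 0, but 1 with log2(value + 16), 2 with the replicate block and 0 to 3 with an array left out; members lower numbered 1, but 0 with the mean of probe sets, 0 without low values, 2 after repeated quantile normalization, 2 with array weights and 0 to 8 with an array left out. Members whose arrays did not overlap numbered 4 higher, but 7 with the replicate block (4 arrays), 7 probe sets on their own and 5 to 9 with an array left out; and 3 lower, but 0 with the mean of probe sets, 6 probe sets on their own and 4 to 13 with an array left out. Fewer arrays overlap less often by construction. The members' median difference of -0.11 was 0.0773 with the mean of probe sets, -0.0421 with the replicate block and -0.11 to 0.0442 with an array left out.

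Directions of single members turned in 27 of 427 recomputed values, none past the test. With the mean of probe sets these were Tgfb1 (0.33), Tgfb2 (-0.00276), Tgfbr2 (0.0679), Acvrl1 (0.0987), Bmpr1a (0.11), Smad1 (0.0773), Smad2 (-0.0787), Ski (0.0423), Tgif2 (0.13) and Smurf1 (0.29). Klf10 turned with quantile normalization (-0.0152) and array weights (-0.14), Acvrl1 with array weights (0.0228) and Ski with the replicate block (0.13). With an array left out, values ran for Tgfb3 from -1.05 to 0.0536, Tgfbr2 from -0.76 to 0.18, Acvrl1 from -0.48 to 0.25, Smad1 from -0.42 to 0.0189, Smad5 from -0.82 to 0.21, Ski from -0.29 to 0.13, Skil from -0.16 to 0.44, Tgif1 from -0.51 to 0.86, Smurf2 from -0.82 to 0.48, Pmepa1 from -0.98 to 0.62 and Klf10 from -0.30 to 0.22. The cause was not tested. Single probe sets give no one value per gene. Signal under the median of all probe sets (5.57) limits Tgfb2, Tgfb3, Ltbp1, Acvrl1, Bmpr1a, Smad6 and Id1.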

Other observations

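Several other pathway genes, chosen after their values were seen, differed mainly in one MSI2-inducible array. Fstl3, a secreted antagonist of activin, lay at 10.05 and 7.58 in MSI2-inducible replicates 1 and 2, against 8.10, 7.75 and 7.68 in control arrays. Itgae, an integrin subunit that TGF-beta induces in T cells, lay at 5.74 and 3.68 in MSI2-inducible arrays, against 3.53, 3.92 and 3.92 in control arrays. Follistatin, Fst, lay at 5.70 and 4.40 in MSI2-inducible arrays and at 4.61, 4.72 and 4.25 in control arrays. Nedd4l, a ubiquitin ligase of Smads, was the reverse, at 5.29 and 6.81 in MSI2-inducible arrays and at 6.81, 6.87 and 6.96 in control arrays. None of these passed limma's test (adjusted p from 0.912 to 0.925). Itgae and Fst were dim, with means under 5.57.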
